A study of Mus musculus with 12 samples.

Results

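The first 3 days after immortalized tumor-initiating cells left hypoxic culture were compared with the culture they had left. Tumor-initiating cells are the cells of a tumour that can seed a new one, and these are of the mouse, from a study of breast cancer and of MMP14, a membrane-anchored matrix metalloprotease. The early window was made of 3 arrays, 1 each of cells kept for 1, 2 and 3 days in normoxic standard conditions, a DMEM-based medium at 21% oxygen. The hypoxic group was 3 arrays of cells in hypoxic stem cell conditions, a mammary stem cell medium free of serum, supplemented with Cultrex (basement membrane extract) to 2%, under 3% oxygen. Both groups were grown to near confluency in dishes, and RNA was read on 1-colour Illumina Mouse WG-6 v2.0 bead arrays. These 6 arrays were all members of both groups, out of 12 arrays in the series. The other 6 were single arrays of days 4, 5 and 6 and 3 arrays of day 7. Oxygen, base medium and Cultrex changed at the same step, so their parts in any difference cannot be told apart. The 3 early arrays are different days, not repeats of 1 day, and the spread between days enters every error given here. Whether the 3 hypoxic arrays stem from independent cultures is not stated, and p-values therefore rest on array-to-array spread that may be technical. Bulk RNA cannot tell a smaller number of cells of a type from less RNA per cell.

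Array names followed the headings of the deposited signal table, and the authors' processed table does not use them in the same way. Of 6 signal columns in that processed table only 1, hypoxic replicate 3, held the array of its own name. Its column for day 2 held the array that the signal table names day 7 replicate 3, and its column for hypoxic replicate 1 held the array named day 6. Under the names of the signal table the 3 hypoxic arrays resembled each other most. With each gene centred over the 6 arrays, the correlation between hypoxic arrays was 0.80 to 0.83 and that between early days 0.57 to 0.78, across genes that are not independent replicates. The arrays also fell into 2 sets by the order of both tables. Days 1, 2 and 3 and hypoxic replicates 1 and 2 were in 1 set and hypoxic replicate 3 was in the other. Repeating the comparison within a set thus meant leaving out hypoxic replicate 3. Between 36.0% and 37.7% of the 45281 probes were detected on the arrays of days 1 to 3, and 36.8% to 37.6% on the hypoxic arrays.

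Cells at low oxygen keep the hypoxia-inducible factors (HIF), whose alpha subunits are hydroxylated and degraded when oxygen is plentiful. Their targets carry glucose uptake, glycolysis, pH control and blood vessel growth. A cell short of amino acids or with unfolded protein in the endoplasmic reticulum instead translates ATF4, which switches on amino acid transporters, aminoacyl-tRNA synthetases and, under lasting stress, Ddit3 and Trib3. Mammary epithelium has luminal and basal layers, and it can also take on squamous traits, the program of the outer skin with kallikreins, cornified envelope proteins and injury keratins.

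Signals are given as background-corrected, quantile-normalized log2 values, and every change is the mean of days 1 to 3 minus the hypoxic mean, with its standard error (SE, n = 3 arrays each). The words rose and fell are used only where the adjusted p of limma lay below 0.05. In this sense 5391 of 10365 genes changed, a share of 52.0%. The number that rose was 2473 (23.9%) and the number that fell was 2918 (28.2%), and these shares are the background for each gene list below. The lists and their members were chosen with earlier results of these data known. List counts set against this background are therefore descriptions, not tests. A change of 2-fold or more was seen in 2651 of them (25.6% of all genes tested), 1226 up and 1425 down. For 140 genes the rise was 8-fold or more, and for 92 the fall was. The median change over all genes was -0.06, a value near 0 that quantile normalization largely sets. On 6278 genes (60.6%) the 3 early arrays and the 3 hypoxic arrays did not overlap.

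**Figure D1:**
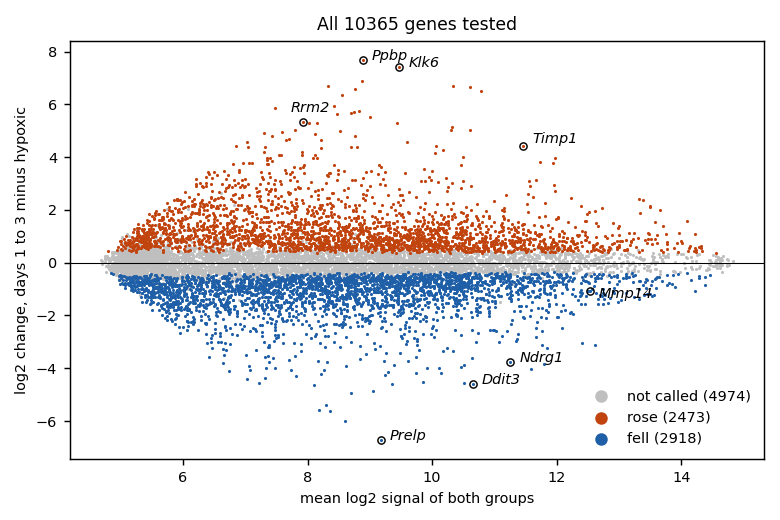
Each point is 1 of 10365 genes, with the mean log2 signal of both groups on the horizontal axis and the log2 change, days 1 to 3 minus hypoxic, on the vertical axis. The 2473 genes that rose are red, the 2918 that fell are blue. Circled genes include Prelp at -6.70 and Ppbp, whose plotted value rests on hypoxic arrays where it was not detected and for which the text gives a bound.

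Large changes were already numerous on the first day. On day 1, 1260 genes lay 2-fold or more above the hypoxic mean and 1399 lay as far below it. The numbers were 1377 and 1623 on day 2, and 1364 and 1517 on day 3. Single hypoxic arrays set against the other pair gave 35 to 79 genes above and 19 to 43 below. The days differed among themselves more than the hypoxic arrays did, since the typical gene had an SD (median) of 0.23 across days 1 to 3 and 0.17 across hypoxic arrays, and 6480 genes (62.5%) had the larger SD over the days. On the probe chosen for each gene, 201 genes were detected on all 3 early arrays and on no hypoxic array, 196 of which rose. Conversely, 220 genes were so detected on all 3 hypoxic arrays and on no early array, 212 of which fell. Detection in 1 group only largely sets the direction in advance, and another probe of such a gene can still be detected.

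Epithelial markers checked the label of the cells. Krt8, a keratin of simple and luminal epithelium, stood at 14.10, 13.91 and 13.74 on days 1, 2 and 3, against 12.99, 13.00 and 13.09 on hypoxic arrays, a rise of 0.89 ± 0.15 (adjusted p = 0.00165). Its partner Krt18 stood at 12.67, 12.35 and 12.19 on days 1, 2 and 3, against 12.34, 12.58 and 12.53, a change that did not pass the test (-0.09 ± 0.17, adjusted p = 0.704). Both keratins were thus bright on all 6 arrays. Cdh1, the epithelial cadherin, fell by 0.59 ± 0.15 (adjusted p = 0.0104), with no overlap between groups. That call was lost, with an adjusted p of 0.0522, when arrays were only shifted to a common median, and a second Cdh1 probe changed by -0.68 and did not pass. Epcam, an epithelial adhesion molecule, was dim at 6.97, 6.23 and 6.42 on the early days, against 6.28, 6.89 and 7.20 in hypoxic cells, and did not pass (-0.25 ± 0.28, adjusted p = 0.491). Vim, the intermediate filament of mesenchymal cells, stood at 11.44, 11.92 and 11.90 on days 1, 2 and 3, against 9.79, 10.44 and 10.43, and rose by 1.53 ± 0.23 (adjusted p = 8.94e-04).

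Markers of other cell types were mostly below detection. Of 17 macrophage markers with a probe, 14 were detected on no early array and 14 on no hypoxic array. The same held for 9 and 11 of 13 lymphocyte markers, and for 9 and 9 of 14 endothelial markers. Their summed linear signal was 1147 to 1445 on early arrays and 910 to 1100 on hypoxic arrays for macrophages, and 390 to 452 against 372 to 424 for lymphocytes. Endothelial markers summed to 824 to 1035 on early arrays and 1182 to 1300 on hypoxic arrays, and adipocyte markers to 555 to 757 and 968 to 1128. Fibroblast markers were brighter, at 10608 to 14737 on early arrays and 10057 to 10640 on hypoxic arrays. Of 13 fibroblast markers with a probe, 4 were detected on no early array and 8 on no hypoxic array. Among 8 measured, 4 rose, Col1a1 (detected on no hypoxic array, at least 8.18-fold) and S100a4 (2.89 ± 0.29) by the most. Only 1 fell, the receptor Pdgfra, by 1.42 ± 0.17. Dcn and Pdpn, also on that list, changed by 0.00 each. The endothelial receptor Flt1 fell by 0.68 ± 0.19, a call lost without hypoxic replicate 3, and the adipocyte genes Lpl and Cebpa fell by 0.89 ± 0.22 and 1.31 ± 0.35, the Cebpa call being lost without day 2. What part other cells had in these values was not tested.

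Mmp14 fell. It stood at 12.21, 11.79 and 11.99 on days 1, 2 and 3, against 13.12, 13.00 and 13.05 on hypoxic arrays, a change of -1.06 ± 0.16, or 2.08-fold (adjusted p = 8.33e-04). Every early array lay below every hypoxic array, yet the probe remained bright on all 6. Of 23 metalloproteases and inhibitors measured, 6 rose (26.1%) and 4 fell (17.4%), against 23.9% and 28.2% of all genes, with a median of 0.25. The largest rise on the list was in Timp1, a secreted inhibitor of metalloproteases, which stood at 13.60, 13.84 and 13.56 on the early days, against 8.96, 9.41 and 9.38 (4.42 ± 0.18, adjusted p = 3.5e-06). Mmp3, stromelysin 1, followed at 8.83, 8.26 and 9.78, against 5.55, 5.09 and 4.89 (3.78 ± 0.37, adjusted p = 1.12e-04). The other metalloprotease genes that rose were Mmp10 (2.99), Adam12 (2.40), Mmp9 (1.08) and Adam8 (0.91). A second Adam12 probe changed by -0.09 and did not pass, so the Adam12 rise depends on the probe. Mmp11 fell by 1.91 ± 0.24 and Adam9 by 0.64. Mmp13, interstitial collagenase, fell by 1.71 ± 0.56 (adjusted p = 0.0344), a call that was lost with the array set as a block, without hypoxic replicate 1, 2 or 3 or without day 3, and without day 2 the change was over 1.5 times smaller. Values of Mmp2 (0.25) and Timp2 (-0.35), the partners of Mmp14 in gelatinase activation, did not pass the test.

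**Figure D2:**
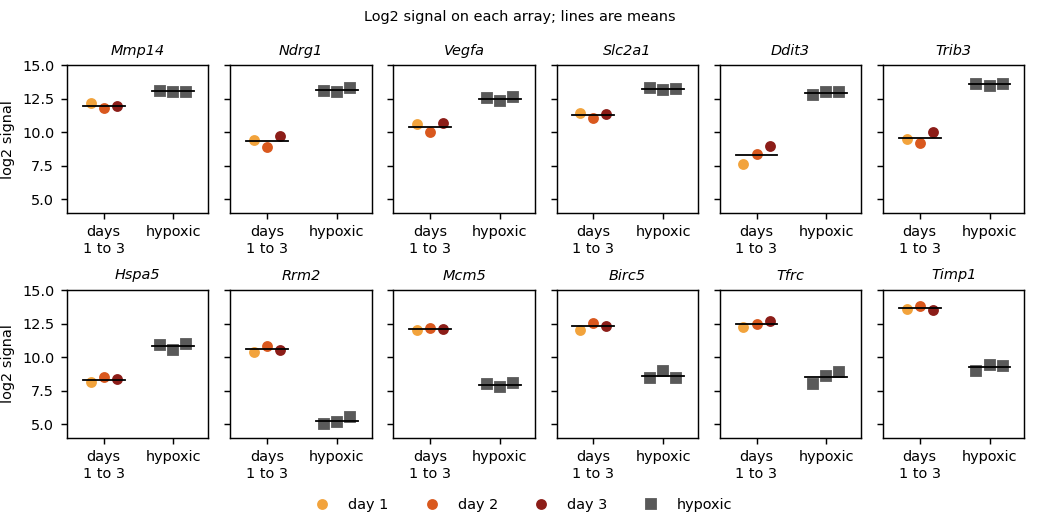
Log2 signal of 12 genes on each array, with days 1 to 3 as coloured points on the left of each panel and 3 hypoxic arrays as grey squares on the right, and a line at each mean. In each panel the groups do not overlap, from Mmp14 (change -1.06) and Trib3 (-4.01) to Rrm2 (5.35) and Timp1 (4.42).

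Squamous epithelial genes and secreted signals stood among the largest rises. Of 19 squamous and cornified envelope genes measured, 18 rose and 0 fell, with a median change of 4.38. The median was 5.40 on day 1, 4.15 on day 2 and 3.07 on day 3, while hypoxic arrays spanned -0.08 to 0.15 around their mean. Klk6, a kallikrein protease, stood at 14.36, 13.62 and 11.56 on days 1, 2 and 3, against 5.64, 5.90 and 5.71 (7.43 ± 0.61, adjusted p = 5.46e-05). It was highest on day 1 and lowest of the early days on day 3, yet each day stood far above every hypoxic array. Krt16, a keratin of injured and proliferating epidermis, stood at 13.31, 11.41 and 10.35, against 5.82, 6.30 and 5.76 (5.73 ± 0.64). Serpinb2, a serine protease inhibitor of keratinocytes, was detected on no hypoxic array and rose at least 33-fold, with 11.53, 10.27 and 9.44 on days 1, 2 and 3. The cornified envelope genes followed the same day order, with Cnfn at 12.92, 10.88 and 10.06 on the early days, against 5.35, 6.33 and 5.26 (5.64 ± 0.66). Klk7 changed by 5.69 ± 0.71, Sprr1b by 5.13, Lor by 4.38 and Ivl by 3.18. Krt10, the keratin of suprabasal epidermis, was the exception (0.17, not past the test). Kallikreins and Sprr genes belong to gene families, and whether a probe reads more than 1 member was not tested. A second Klk6 probe changed by 6.95.

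**Figure D3:**
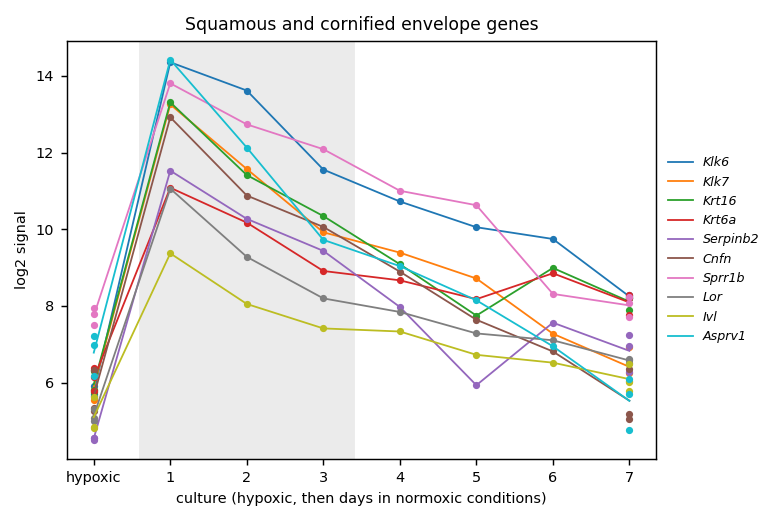
Log2 signal of 10 squamous genes in hypoxic cells and on days 1 to 7, with points for arrays, lines through means and days 1 to 3 shaded. All 10 are highest on day 1, and the day 7 mean of Asprv1 lies below its hypoxic mean.

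Outside that list the single largest rise belonged to Ppbp, a platelet-type CXC chemokine. It stood at 13.00, 12.92 and 12.26 on days 1, 2 and 3, against 5.09, 4.96 and 5.07 on hypoxic arrays, on none of which it was detected, and rose at least 164-fold (adjusted p = 2.92e-06). Il24, a cytokine made by keratinocytes, stood at 12.42, 12.38 and 12.11, against 5.76, 5.01 and 5.54 (6.87 ± 0.22). Il1a, an alarm cytokine of epithelium, stood at 11.61, 11.04 and 11.53, against 5.24, 5.68 and 5.43 (5.94 ± 0.20). Each early array lay far above every hypoxic array for all 3 genes, and Ppbp and Il24 were lowest on day 3 among the early days. Prl2c2, Prl2c3 and Prl2c4, which encode proliferins, secreted proteins of the prolactin family, changed by 6.51 ± 0.19, 6.65 ± 0.24 and 6.69 ± 0.31, and their probes may read each other's transcripts. Aldh1a3, a retinaldehyde dehydrogenase, stood at 12.71, 11.55 and 10.73 and was detected on no hypoxic array, a rise of at least 78.5-fold. A second Aldh1a3 probe changed by 2.45. Psca, a surface protein of the Ly6 family, changed by 6.34 ± 0.67, Krtdap, a secreted keratinocyte protein, by 6.57 ± 0.39, and Mab21l4 by 5.66 ± 0.36.

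The largest falls were of a different kind. Prelp, a proteoglycan that binds basement membrane, stood at 6.70, 5.65 and 5.10 on days 1, 2 and 3, against 12.33, 12.51 and 12.73 on hypoxic arrays (-6.70 ± 0.37, adjusted p = 1.16e-05). Wfdc3, a WAP domain protein, stood at 6.03, 5.17 and 5.57, against 11.77, 11.62 and 11.40 (-6.01 ± 0.23). Trf, which encodes transferrin, the iron carrier of plasma, stood at 6.53, 5.20 and 5.09, against 10.49, 11.24 and 11.22 (-5.38 ± 0.39). All 3 genes were thus bright in hypoxic cells and near the detection limit by day 2. Gsta3, a glutathione transferase, fell by 5.62 ± 0.35, but a second probe of the gene changed by -0.28 and did not pass. Ifi27l2a, an interferon-induced gene, fell by 5.60 ± 0.44, Tenm4, a teneurin, by 4.85 ± 0.32, Angptl6 by 4.62 ± 0.18 and the acute-phase serpin Serpina3n by 4.58 ± 0.28. N4bp2l1 fell by 4.92 ± 0.31 on its brightest probe, but by only 0.62 on a second. Further probes of Tenm4 changed by -0.68 and -3.85. Pik3ip1, an inhibitor of phosphoinositide 3-kinase, Pdlim3 and Vnn3 were detected on no early array and were at least 17.3-fold, 17.2-fold and 14.4-fold lower. Tsc22d3, a glucocorticoid-induced regulator, stood at 6.81, 7.87 and 8.13, against 12.16, 12.09 and 12.08 (-4.51 ± 0.31), and Cited4 fell by 4.56 ± 0.50. A second Tsc22d3 probe changed by -1.78.

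Genes of cell division rose almost without exception. All 24 measured mitotic genes rose, with a median change of 2.76, and 30 of 31 DNA replication genes did, with a median of 2.27, against 23.9% of all genes. Birc5, the survivin subunit of the chromosomal passenger complex, stood at 12.05, 12.58 and 12.33 on days 1, 2 and 3, against 8.47, 8.96 and 8.42 (3.70 ± 0.21, adjusted p = 1.27e-05). Cdca3, a trigger of mitotic entry, stood at 10.43, 11.26 and 11.32, against 7.47, 7.10 and 7.52 (3.64 ± 0.26). Rrm2, a subunit of the ribonucleotide reductase that makes deoxynucleotides, stood at 10.38, 10.84 and 10.58, against 5.01, 5.19 and 5.56 (5.35 ± 0.20, adjusted p = 3.06e-06). Further Rrm2 probes changed by 5.17 and 0.61. In each of these genes the early arrays lay above every hypoxic array already on day 1. Mcm5, a subunit of the replicative helicase, rose by 4.16 ± 0.15. Ung, a DNA glycosylase, was the replication gene that did not pass (0.35).

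Regulators of the step into S phase went both ways, 10 of 19 up and 5 down. Ccne1 and Ccne2, the E cyclins, stood at 8.65, 8.75 and 8.35, against 5.97, 5.58 and 5.78 (2.81 ± 0.17), and at 7.69, 7.94 and 7.66, against no detection on any hypoxic array (at least 5.26-fold). The inhibitor Cdkn1c stood at 5.26, 5.71 and 6.51 on the early days, against 9.33, 9.0 and 8.49, and fell by 3.12 ± 0.34 (adjusted p = 1.84e-04). Rb1, the retinoblastoma protein, fell by 1.09 ± 0.20, although a second probe of it did not pass. Cdkn1b changed by -0.95 and Cdkn2b by -0.92, whereas the inhibitors Cdkn1a (0.99) and Cdkn2c (1.57) rose.

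Many mitotic promoters carry the cell cycle homology region, whose letters TTTGAA are read by the DREAM complex. Searched on both strands over 300 bases per promoter, 250 before and 50 after the start, these letters were found in 17 of 20 mitotic genes with a promoter entry (85%). Among all tested genes with an entry the share was 14.3% of 8374, and among all promoter entries 17.9%. A match is a description of the letters, not of binding. The promoters of Cdca3 and Kif2c, a microtubule depolymerase that changed by 3.49, are printed as examples that hold the letters among the largest rises, from RefSeq on GRCm38.p6, 5′ to 3′ on the gene's strand, with the matched letters in capitals. The Cdca3 window is chr6:124829926-124830225 on the plus strand with its match at 31 from the start, and the Kif2c window is chr4:117178723-117179022 on the minus strand with its match at -103.
Cdca3: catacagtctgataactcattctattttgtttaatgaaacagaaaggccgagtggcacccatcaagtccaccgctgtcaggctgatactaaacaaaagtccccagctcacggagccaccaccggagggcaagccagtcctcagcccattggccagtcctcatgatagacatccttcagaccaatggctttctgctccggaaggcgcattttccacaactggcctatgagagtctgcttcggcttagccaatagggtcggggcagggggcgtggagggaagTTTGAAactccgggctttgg
Kif2c: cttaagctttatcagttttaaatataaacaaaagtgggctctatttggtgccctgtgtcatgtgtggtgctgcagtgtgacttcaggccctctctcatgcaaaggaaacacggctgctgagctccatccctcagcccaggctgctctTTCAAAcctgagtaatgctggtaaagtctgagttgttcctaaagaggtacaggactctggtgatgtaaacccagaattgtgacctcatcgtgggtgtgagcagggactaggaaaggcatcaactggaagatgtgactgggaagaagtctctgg

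HIF targets moved the other way. Of 27 measured, 22 fell and 4 rose, with a median change of -1.92, and 28.2% of all genes fell. Ndrg1, a stress-responsive gene strongly induced by hypoxia, stood at 9.42, 8.93 and 9.73 on days 1, 2 and 3, against 13.06, 13.00 and 13.35 (-3.78 ± 0.22, adjusted p = 1.43e-05). Car12, a membrane carbonic anhydrase, stood at 9.17, 8.98 and 8.31, against 12.90, 12.23 and 12.23 (-3.63 ± 0.28). Both were low on every early day with no overlap. Further members that fell included Vegfa, the vascular growth factor (-2.08), Pdk1, which holds pyruvate back from mitochondria (-1.92), Car9 (-2.10), and Egln3 and Egln1, the prolyl hydroxylases that mark HIF for degradation (-1.32 and -0.84). The exceptions were Angptl4, a lipase inhibitor, at 10.40, 10.30 and 10.28, against 7.23, 7.47 and 6.92 (3.12 ± 0.17), and Pfkfb4, a regulator of glycolytic flux, at 9.04, 7.94 and 8.12, against 7.27, 7.02 and 6.65 (1.39 ± 0.30). Anxa2 (0.62) and Stc1 (0.87) also rose.

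The core letters of the hypoxia response element, ACGTG, were found on either strand in the promoters of 14 of 21 HIF targets with an entry (66.7%). The share was 29.5% of 8374 tested genes with an entry and 19.6% of all 32851 promoter entries. Mxi1, a Myc antagonist that changed by -2.87, and P4ha2, a collagen prolyl hydroxylase that changed by -2.53, are printed in the same form, chosen among the largest falls for holding these letters. The Mxi1 window, 1 of 3 entries for that gene, is chr19:53329163-53329462 on the plus strand with a match at -66. The P4ha2 window is chr11:54100674-54100973 on the plus strand with matches at -78 and 11.
Mxi1: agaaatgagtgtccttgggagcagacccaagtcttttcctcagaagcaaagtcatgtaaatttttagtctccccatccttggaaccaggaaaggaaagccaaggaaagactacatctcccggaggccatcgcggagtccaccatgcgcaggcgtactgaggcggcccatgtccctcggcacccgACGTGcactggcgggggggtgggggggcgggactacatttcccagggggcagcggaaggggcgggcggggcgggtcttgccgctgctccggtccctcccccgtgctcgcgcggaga
P4ha2: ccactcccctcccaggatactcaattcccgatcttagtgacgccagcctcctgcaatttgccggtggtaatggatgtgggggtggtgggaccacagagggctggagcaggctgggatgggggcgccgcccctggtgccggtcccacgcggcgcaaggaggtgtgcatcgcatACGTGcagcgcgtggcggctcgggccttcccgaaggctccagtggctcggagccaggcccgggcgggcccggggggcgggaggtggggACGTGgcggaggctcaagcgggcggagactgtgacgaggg

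Glycolysis fell in part. Of 17 genes measured, 9 fell and 1 rose, with a median of -0.58. Aldoc, an aldolase, stood at 8.92, 6.15 and 7.04 on days 1, 2 and 3, against 11.00, 11.08 and 11.20 (-3.72 ± 0.60, adjusted p = 0.00129). Slc2a1, the glucose transporter GLUT1, stood at 11.46, 11.04 and 11.38, against 13.29, 13.15 and 13.27 (-1.94 ± 0.16). The later enzymes moved less. Values of Gapdh (0.03), Pgam1 (-0.05) and Ldha (0.31) did not pass, and Pkm, pyruvate kinase, rose by 0.44 ± 0.13, a call lost with the array set as a block, without hypoxic replicate 2 or 3 or without day 2. Of 30 oxidative phosphorylation genes 7 rose (23.3%) and 4 fell (13.3%), against 23.9% and 28.2% of all genes, with a median of 0.22. The electron carrier Cycs changed by 1.13 ± 0.16, though a second probe of it did not pass, and Ndufa4 by 1.05 ± 0.16. Uqcrq fell by 0.83 ± 0.21 and Ndufb9 by 0.73 ± 0.19, the Ndufb9 call being lost without hypoxic replicate 3. The 11 calls of this list were 7 without hypoxic replicate 1 and 6 without hypoxic replicate 3.

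Genes of the ATF4 program fell. Of 28 measured genes 23 fell and 0 rose, with medians of -1.60 on day 1, -1.44 on day 2 and -1.06 on day 3. Ddit3, the stress transcription factor CHOP, stood at 7.64, 8.40 and 9.0 on days 1, 2 and 3, against 12.83, 12.99 and 13.05 (-4.61 ± 0.31, adjusted p = 2.41e-05). Trib3, a pseudokinase that CHOP induces, stood at 9.52, 9.21 and 10.01, against 13.65, 13.50 and 13.63 (-4.01 ± 0.21). Both were far below hypoxic cells on every day. Slc7a11, the cystine importer, stood at 6.57, 6.06 and 6.67, against 10.23, 10.26 and 10.08 (-3.76 ± 0.19). A second Slc7a11 probe changed by -0.71. Atf4 itself changed by -1.13 and asparagine synthetase, Asns, by -1.07, while the serine pathway genes Phgdh (0.40), Psat1 (-0.13) and Shmt2 (0.44) did not pass the test.

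Chaperones of the endoplasmic reticulum fell beside it, 17 of 20 down and 1 up, with a median of -1.14. Sdf2l1, a chaperone cofactor, stood at 8.08, 8.29 and 7.93 on the early days, against 10.62, 11.12 and 10.94 (-2.79 ± 0.18). Ero1b, an oxidase for disulfide formation, fell by 2.59 ± 0.30, Hspa5, the chaperone BiP, by 2.48 and Xbp1 by 1.41. Ssr1, part of the translocon, rose by 0.88 ± 0.16 on its brightest probe, but 2 further probes did not pass. Cytosolic heat shock genes were mixed, with 7 of 18 up and 3 down. Stip1 (1.29 ± 0.19) and Hsph1 (1.25 ± 0.20), co-chaperones of Hsp90 and Hsp70, rose, and the small heat shock gene Hspb8 (-1.15 ± 0.18) and Hspa1a (-1.10 ± 0.20), which has a near-identical neighbour, fell.

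Interferon-response genes fell, and none of 24 rose. The number that fell was 19, with medians of -1.28 on day 1, -1.57 on day 2 and -1.44 on day 3. Oasl2 stood at 7.50, 7.46 and 6.78 on days 1, 2 and 3, against 10.15, 10.13 and 10.98 (-3.18 ± 0.29, adjusted p = 8.4e-05). Gbp3, a guanylate-binding protein, stood at 6.50, 6.10 and 6.16, against 9.06, 9.37 and 9.45 (-3.04 ± 0.18). Isg15, a ubiquitin-like modifier, stood at 7.82, 7.98 and 7.98, against 9.74, 10.74 and 10.78 (-2.49). The transducers Irf9 (-2.99), Stat2 (-2.23) and Irf7 (-2.03) fell too. Antigen presentation genes moved less, 2 of 9 down and 1 up. The peptide transporter Tap2 fell by 2.18 ± 0.18 and the immunoproteasome subunit Psmb10 rose by 0.59 ± 0.15, a call lost with the array set as a block (adjusted p = 0.0583). The class I gene H2-D1 fell by 0.66 ± 0.19, a call lost without hypoxic replicate 2 or 3 or without day 2 or 3.

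**Figure D4:**
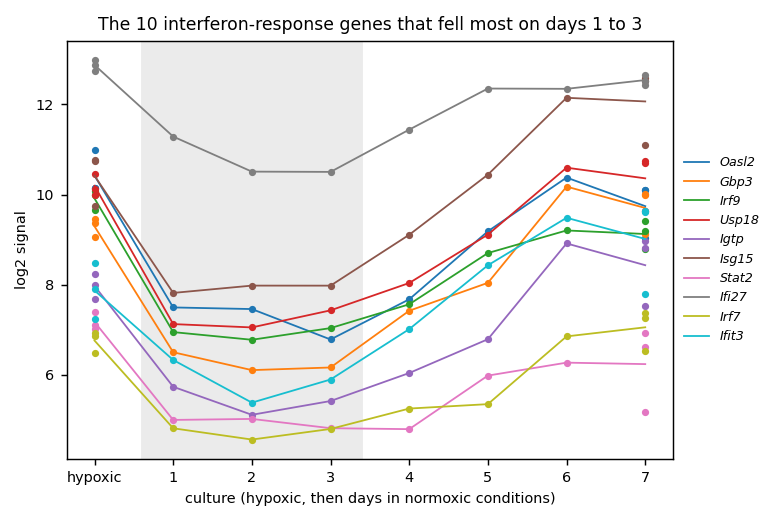
Log2 signal of the 10 interferon-response genes that fell most, in hypoxic cells and on days 1 to 7, with points for arrays and lines through means. All 10 lie below hypoxic cells on days 1 to 3, and the day 7 means of Isg15 and Ifit3, among others, lie above the hypoxic means.

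Inflammatory genes of the NF-κB group were higher as a list, with 16 of 29 up, 4 down and a median of 0.82. Csf3, the granulocyte growth factor, was at 8.90, 9.29 and 9.75 on days 1, 2 and 3 on its brightest probe, which was detected on no hypoxic array and rose at least 15.4-fold. A second Csf3 probe changed by -0.15 and did not pass, so the probes disagree. The monocyte chemokines Ccl2 (4.09) and Ccl7 (3.14), the neutrophil chemokine Cxcl2 (2.98) and the prostaglandin synthase Ptgs2 (3.19) rose. Icam1, an adhesion molecule for leukocytes, went against them at 8.38, 8.71 and 9.55, against 11.05, 10.92 and 10.82 (-2.05 ± 0.28), and Ccl5 fell by 1.20 ± 0.23. The markers of macrophages Cd14 and Mpeg1, 2 of 3 measured, rose by 0.59 ± 0.19 and 0.96 ± 0.24. Mpeg1 was near the detection limit, at 6.00, 5.72 and 6.29 on days 1, 2 and 3, against 4.90, 4.72 and 5.52. It was detected on only 1 hypoxic array. The Cd14 call was lost with the array set as a block, without hypoxic replicate 1 or 3 or without day 1 or 3.

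Ribosome biogenesis and proteasome genes moved opposite to lysosomal genes. Of 19 ribosome biogenesis genes 16 rose and 0 fell (median 0.96), led by Nop56 (1.77 ± 0.22) and Rrp12 (1.73 ± 0.17), which serve rRNA maturation. Of 20 proteasome genes 17 rose and 0 fell (median 0.83), led by the lid subunits Psmd12 (1.50 ± 0.15) and Psmd14 (1.42 ± 0.18). Lysosomal genes fell, 15 of 22 with 0 up (median -0.80), and Hexa, a hexosaminidase, and Lgmn, the protease legumain, by the most (-2.53 ± 0.21 and -2.04 ± 0.19). Sterol synthesis genes rose in 8 of 18 cases and fell in 1, with medians of 0.42 on day 1, 0.60 on day 2 and 1.09 on day 3. Mvk, mevalonate kinase, stood at 7.95, 8.26 and 8.71, against 5.34, 5.29 and 5.47 (2.94 ± 0.21), and Dhcr7 rose by 1.71 ± 0.17. The fall of Sc5d (-0.62 ± 0.22, adjusted p = 0.047) was lost under each of 5 omissions of 1 array, and only without day 3 did it pass. Fatty acid synthesis hardly moved, with Elovl1 up (0.54 ± 0.17), Fads1 down (-0.79 ± 0.26) and 9 of 11 genes not past the test, and both calls were lost without hypoxic replicate 1.

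**Figure D5:**
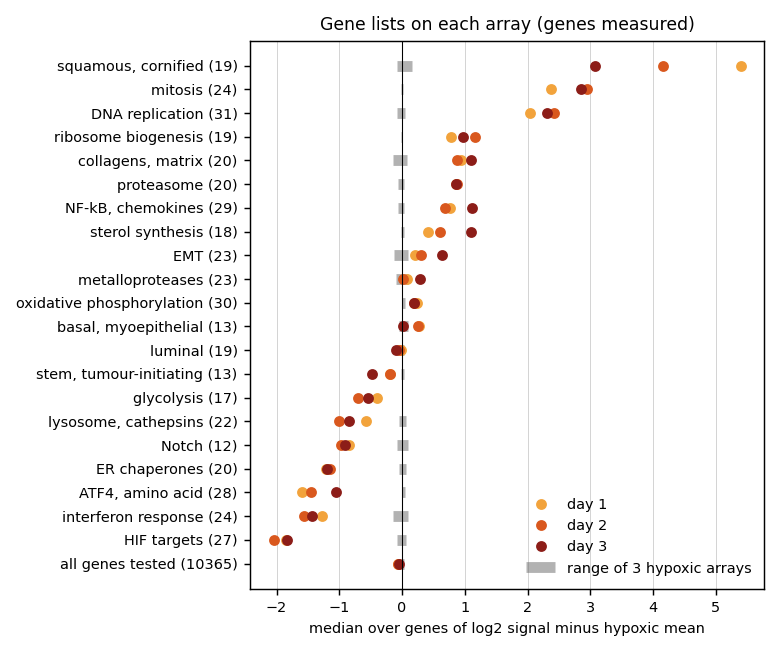
Median over the genes of each list of the log2 signal minus the hypoxic mean, on days 1, 2 and 3 (points) beside the range of 3 hypoxic arrays (grey bars). Squamous genes run highest and fall with the days (5.40, 4.15 and 3.07), and HIF targets lie lowest (-1.92 over the 3 days). The median of all genes stays near 0, which quantile normalization largely sets.

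Redox and iron genes split by gene. Among 24 NRF2 and glutathione genes 9 rose and 7 fell. The glutathione transferase Gsta1 stood at 11.14, 9.70 and 8.56 on days 1, 2 and 3, against 6.19, 5.96 and 6.14 (3.71 ± 0.55), and Osgin1 rose by 2.71 ± 0.23. Gsta1 and Gsta3 belong to a family whose probes may bind each other's transcripts. Hmox1 (1.69) and Nqo1 (1.66) rose, and Gstm1 (-2.61) and Mgst1 (-2.77) fell. Tfrc, the transferrin receptor, stood at 12.26, 12.47 and 12.74, against 8.03, 8.58 and 8.88 (3.99 ± 0.24, adjusted p = 1.53e-05), the reverse of transferrin. Slc11a2, an iron importer, rose by 1.52 ± 0.17 on its brightest probe and changed by -1.20 on another, so its direction depends on the probe. Of 12 iron and metallothionein genes 4 rose and 4 fell, or 5 in all without hypoxic replicate 1 or without day 2. Metallothionein Mt2 fell by 1.78 ± 0.22. The iron exporter Slc40a1 fell by 1.21 ± 0.41, a call lost without any 1 hypoxic array and without day 2 or 3. Of 18 p53 targets 5 rose and 8 fell, Plk2 (1.67 ± 0.23) and Pmaip1 (1.01 ± 0.20) leading the rises and Trp53inp1 (-3.28 ± 0.36) and Bbc3 (-3.14 ± 0.24) the falls. Further Bbc3 probes changed by -0.89 and -1.33.

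Growth factor signalling genes changed in single members more than as lists. Hbegf, an EGF receptor ligand, stood at 10.75, 10.27 and 9.99 on days 1, 2 and 3, against 6.50, 7.08 and 6.97 (3.49 ± 0.24), and Dusp5, an ERK phosphatase, at 10.51, 9.49 and 9.41, against 6.95, 6.86 and 6.53 (3.02 ± 0.30). Etv1 (-1.67 ± 0.23) and Spred1 (-1.54 ± 0.19), also of the ERK list, fell, and 7 of its 17 genes rose and 3 fell. Of 16 immediate early genes 4 rose (25%) and 5 fell (31.2%), close to the 23.9% and 28.2% of all genes. Egr3 (2.13 ± 0.38) and Ier3 (1.55 ± 0.16) led the rises, and Atf3 (-1.59 ± 0.36) and Klf2 (-1.48 ± 0.29) the falls. The AP-1 letters TGANTCA were in 0 of 14 promoters of that list, against 6.47% of tested genes with an entry. So few promoters cannot tell 0 from that share. Inhibitors of differentiation split, as Id3 stood at 9.93, 10.22 and 9.79, against 5.15, 5.54 and 5.31 (4.65 ± 0.18), Id1 rose by 3.39 ± 0.27, and Id4 stood at 7.69, 8.13 and 6.86, against 10.96, 10.86 and 11.10 (-3.42 ± 0.30). In the TGF-β and BMP list that holds them 7 of 19 rose and 5 fell, with the receptor Tgfbr1 at -1.18 ± 0.14.

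Notch genes fell more than they rose, 7 of 12 against 3, with a median of -0.94. The effector Hey1 fell by 2.41 ± 0.31, the ligand Dll1 by 2.02 ± 0.19 and the receptors Notch1 and Notch3 by 1.70 and 1.69. Nrarp, a feedback inhibitor, rose by 0.97 ± 0.22, and the rise of Notch4 (0.89 ± 0.24) was lost without hypoxic replicate 1 or 3. Of 16 YAP and TEAD genes 5 rose (31.2%) and 4 fell (25%), against 23.9% and 28.2% of all genes. Ccn1 (1.99 ± 0.17) and Nuak2 (1.73 ± 0.22) were at 1 end, and Amotl1 (-1.10 ± 0.16) and Wwtr1 (-1.05 ± 0.13), which encodes TAZ, at the other. Other probes of Wwtr1 changed by 0.31 and 0.27, in the opposite direction, and did not pass. With the mean of its probes the change was -0.16 and the call was lost. Of 17 actin and SRF genes 8 rose and 3 fell, Cald1 (2.09 ± 0.18) and Fhl2 (0.94 ± 0.16) against Myl9 (-1.63 ± 0.29) and Srf itself (-0.88 ± 0.16). A second Cald1 probe did not pass, and the 11 calls of that list were 7 without hypoxic replicate 2 or 3.

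Matrix genes rose, 13 of 20 with 2 down and a median of 0.92. Col1a1, a fibrillar collagen, stood at 7.58, 8.53 and 9.09 on days 1, 2 and 3 and was detected on no hypoxic array (at least 8.18-fold), and Thbs1, a matricellular protein, at 7.63, 7.46 and 7.16 with no detection in hypoxic cells (at least 4.14-fold). The 2 that fell were Prelp, given above with the largest falls (-6.70 ± 0.37), and Fn1. Fn1, fibronectin, stood at 10.26, 10.75 and 10.72, against 11.62, 12.08 and 12.16 (-1.38 ± 0.21). Among 17 laminins and integrins 7 rose and 5 fell. The integrin chains Itga2 (detected on no hypoxic array, at least 6.59-fold) and Itgb6 (2.30 ± 0.27) rose, whereas the laminin chains Lama5 (-2.51 ± 0.17) and Lamb2 (-1.71 ± 0.21), parts of basement membrane, fell. These laminins were measured as transcripts of the cells, beside a hypoxic medium that itself contained a basement membrane preparation.

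Genes of epithelial to mesenchymal change rose in 9 of 23 cases and fell in 5. Fstl1 stood at 8.52, 8.87 and 9.54, against 4.98, 5.53 and 6.08 (3.45 ± 0.34), and S100a4 at 10.56, 10.30 and 10.48, against 7.02, 7.43 and 8.22 (2.89 ± 0.29). The repressor Snai1 rose (2.89) and its relative Snai2 fell (-1.27 ± 0.20), and Twist1 (0.11) and Cdh2 (-0.02) did not pass. Luminal genes showed 4 up (21.1%) and 5 down (26.3%) of 19, close to the 23.9% and 28.2% of all genes. Krt7 rose by 2.09 ± 0.13, and Kit and Prom1, detected on no early array, were at least 1.70-fold and 1.67-fold lower. Basal genes showed 4 up (30.8%) and 2 down (15.4%) of 13. Sfn, 14-3-3 sigma, stood at 11.62, 11.15 and 10.20, against 6.47, 7.31 and 6.05 (4.38 ± 0.42), while a second Sfn probe changed by 0.73. Trp63, the master regulator of basal cells, stood at 10.21, 9.23 and 9.08, against 11.53, 11.18 and 11.22 (-1.81 ± 0.29), and the ligand Jag2 fell by 1.92 ± 0.20. The collagen Col17a1 rose by 0.77 ± 0.26 on its brightest probe, but the call was lost without any 1 hypoxic array and without day 1 or 2. Krt5 (0.38) and Krt14 (0.28), the basal keratins, did not pass. Among 13 stem and tumour-initiating cell genes 2 rose (15.4%) and 4 fell (30.8%). Cd44, a hyaluronan receptor, stood at 12.19, 11.98 and 12.43, against 10.29, 9.92 and 10.15 (2.08 ± 0.17), and Sox4 fell by 1.35 ± 0.14 with a second probe that did not pass. The rise of Procr (0.87 ± 0.23) was lost without hypoxic replicate 3.

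Some genes climbed or declined within the window, which is described here without a test because each day has 1 array. Of the genes that rose, 594 (24%) stood in the order day 1, day 2, day 3 from low to high and 402 (16.3%) from high to low, against 21.4% and 18.8% of all genes. Among those that climbed most, Prl2a1, of the prolactin family, stood at 6.57, 7.49 and 9.31, Ccl9, a chemokine, at 5.88, 7.56 and 8.30, Rgs4, a regulator of G protein signalling, at 7.00, 8.24 and 9.08, and Cdhr1 at 7.18, 8.26 and 9.18 on days 1, 2 and 3. Dgkk (6.05, 8.47 and 8.52) and Pramel39 (5.18, 7.54 and 7.66) stepped up between days 1 and 2. Those that declined most were Asprv1, an epidermal protease, at 14.42, 12.13 and 9.72, Fam25c at 11.02, 9.33 and 7.37, Ly6g6c at 10.65, 8.85 and 7.04, Trex2, an exonuclease of cornifying keratinocytes, at 9.87, 6.97 and 6.27, Pinlyp at 10.21, 7.59 and 6.62, and 2310011E23Rik at 10.59, 7.27 and 5.51. Without day 1 the changes of Trex2, Pinlyp and 2310011E23Rik were 1.42, 1.58 and 1.63, against 2.50, 2.62 and 3.03 with it. The calls of Trex2, 2310011E23Rik and Pramel39 were lost without any 1 hypoxic array, and that of Pinlyp without hypoxic replicate 1 or 3.

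The window was also set against 3 day 7 arrays, which shares the early arrays with the comparison above. Day 7 replicate 1 was in the array set of the early days, and day 7 replicates 2 and 3 were in the other. Array set and day thus cannot be fully told apart here, and no fit within a set or with the set as a block was run. Of 10365 genes 3783 differed (36.5%), with 2023 higher on days 1 to 3 (19.5%) and 1760 lower (17.0%). Without day 7 replicate 2 the number was 2315. Squamous genes were higher on days 1 to 3 in 14 of 19 cases and lower in 4, with list medians above hypoxic cells of 4.38 on days 1 to 3 and 1.76 on day 7. Klk6 differed by 4.93, Psca by 6.06 and Cnfn by 5.76. Interferon-response genes were lower on days 1 to 3 than on day 7 in 21 of 24 cases, with list medians against hypoxic cells of -1.48 on days 1 to 3 and 0.33 on day 7. Gbp3 differed from day 7 by -3.45. YAP and TEAD genes (11 of 16), laminins and integrins (11 of 17), ribosome biogenesis (12 of 19) and DNA replication genes (18 of 31) were higher on days 1 to 3 than on day 7. HIF targets differed in 10 of 27 cases, 2 higher and 8 lower. Mmp14 did not differ from day 7 past the test (0.42, adjusted p = 0.0835), and neither did Timp1 (0.10, adjusted p = 0.682).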

How the data were processed

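Total RNA of 12 samples was hybridized to Illumina Mouse WG-6 v2.0 arrays. For 45281 probes the deposited table gives 1 log2 signal per array, with detection p-values beside it. From their values the deposited log2 signals were neither background-corrected nor normalized between arrays, and the summarization of beads is not given in the sources used. Per the file headers the p-value columns carry no sample name. The deposited p-value column beside a signal ordered 0 of 12 signals, and each signal was ordered exactly by 1 other p-value column, which was used for it. The authors' processed log2 values, whose column medians were 4.95, served only to check names. They differed from the values computed here by at most 0.0236, so they are uncentred log2 values, and their method is not stated.

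Signals were processed with neqc of limma 3.58.1 (R 4.3.3) over all 12 arrays, with an offset of 16. Probes with a detection p below 0.05 on at least 3 arrays were kept (18561). Of all probes, 34885 had 1 gene symbol in the platform annotation, 18 more than 1 and 10378 none, with 0 symbols altered by an update through RefSeq (GRCm38.p6). Kept probes with a single gene numbered 16023. A gene was represented by its kept probe with the highest mean. For 3872 genes more than 1 probe was kept, and tested singly, probes of 96 of these passed in opposite directions. Limma models of 2 groups (lmFit, eBayes) were fitted to 6 arrays for each comparison, with 4 residual degrees of freedom, 2-sided, and Benjamini-Hochberg adjustment over all genes. The exact permutation test of 3 against 3 cannot go below 0.1. The number of arrays limits the precision. A probe detected on no array of a group gets a bound, the mean of the brighter group against the dim group's mean of the higher of its own signal and the lowest detected signal of each array.

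The fit was also run on data simulated for days 1 to 3 against hypoxic over 10365 genes. It recovered 46 of 100 genes changed by 1 on the log2 scale and 89 of 100 changed by 2. There were 0 of wrong sign and 7 false calls. On the measured arrays 5391 genes (52.0%) passed the threshold, a far larger share than was altered in that run. Recovery at such a share was not tested.

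The 39 gene lists (892 entries, 654 distinct genes measured) and the members were chosen with earlier results of these data known. Named genes were the 15 largest rises and 15 largest falls past the threshold without overlap and detected on all arrays of the higher group, per list the 2 largest rises and falls past it, Mmp14, Krt8, Krt18, Epcam, Cdh1 and Vim, and 6 genes each that climbed or declined most over the days. Other list members are named to show the rest of a list and were chosen after their values were seen. Their further probes were not compared throughout. Alternatives changed normalization, background correction, filter, probe choice, model, array sets and arrays left out.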

Additional observations from a re-analysis of the deposited data

Results flagged for a closer look

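Among the genes named or on a list, 3 that changed past the threshold in both comparisons lay 2-fold or more from the hypoxic mean on opposite sides on days 1 to 3 and on day 7. Asprv1 stood 5.31 above the hypoxic mean on days 1 to 3 and at -1.26 on day 7, a difference of 6.57 between days 1 to 3 and day 7 (limma, adjusted p = 0.00425). Isg15 stood at -2.49 on days 1 to 3 and at 1.65 on day 7, a difference of -4.14 (adjusted p = 0.00102), and Ifit3 at -2.00 and 1.14, a difference of -3.15 (adjusted p = 0.0044). Isg15 and Ifit3 were both on the interferon-response list. Day 7 replicate 3 was the lowest of its group for both, at 11.09 for Isg15 and 7.80 for Ifit3. Day 7 was not tested against hypoxic cells. For Ifit3 these 2 groups overlapped, at 9.62, 9.63 and 7.80 on day 7 and 7.24, 7.90 and 8.48 in hypoxic cells. Asprv1 was dim on day 7, at 5.71, 4.77 and 6.09, and was detected on 2 of these arrays.

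Probes with no gene name were left out of every comparison above. Of 2538 kept, 1182 passed the threshold (46.6%), 521 up and 661 down. Among them 59 were detected on all 3 arrays of days 1 to 3 and on 0 of 3 hypoxic arrays.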

How the results depend on the processing

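Of 10365 genes, 5391 differed between days 1 to 3 and hypoxic cells, and the count was 4546 to 7982 under the alternatives. The highest came from testing all 16023 kept probes singly. Leaving out 1 array gave 4546 to 5411. Within the set that holds 2 hypoxic arrays and all early days it was 4546. That is the same fit as the one without hypoxic replicate 3, not a separate check. With the set as a block the count was 5210. A model with a mean for each labelled group, whose spread excludes the differences between days, gave 5687. For days 1 to 3 against day 7, where 3783 genes differed, leaving out 1 array gave 2315 to 3427, the lowest without day 7 replicate 2. In 1 result the sign reversed. Slc11a2 was at -1.21 (adjusted p = 0.002) when the 6 arrays were normalized on their own, where another of its probes was the brightest. Of 157 named genes past the threshold, 134 kept their call under every alternative run and 23 lost it under at least 1. No paired analysis was possible because days 1, 2 and 3 have 1 array each and all carry replicate number 1. List medians of immediate early, luminal, laminin and integrin, metallothionein and iron, endothelial and lymphocyte genes changed sign under at least 1 alternative. Low signal limits dim genes, for which a fold is only a bound.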
